A study of Homo sapiens with 5 samples.

Results

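ERG regions that were found in a single replicate were examined in VCaP cells, a human prostate cancer line. Overlapping peaks of both ERG lists were merged, and a region was selected when it held peaks of only replicate 1 or only replicate 2. This rule gave 6729 of the 16095 merged ERG regions (41.8%, 95% Wilson interval 41.1% to 42.6%), of which 4955 were in replicate 1 alone and 1774 in replicate 2 alone. The other 9366 regions held peaks of both replicates and are called shared. The members were thus chosen by the presence or absence of a called peak, and their number, split and widths are a description of those calls, given without a test.

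ERG is a transcription factor of the ETS family, whose members bind DNA through a short core, GGAA (TTCC on the opposite strand). VCaP cells carry the TMPRSS2-ERG fusion, which places ERG under the control of an androgen-responsive promoter, and they express a p53 protein with a mutation in its DNA-binding domain. p53 in its normal form is a tumour suppressor that activates genes of cell cycle arrest and cell death. In chromatin immunoprecipitation followed by sequencing (ChIP-seq), DNA bound by a factor is enriched with an antibody, and stretches with an excess of reads are called as peaks.

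All samples were untreated VCaP cells grown in DMEM with serum. ERG was precipitated in 2 samples and p53 in 2, and the input chromatin, the fifth sample, was not used here. The study calls replicates biological, but the labels do not say that they came from separate cultures. With 2 samples of 1 condition no test between replicates was possible, and every interval below covers counting error in the lists only. The lists give positions without heights, so widths stand in for no measure of enrichment and sequencing depth was not used. The ERG lists held 14337 peaks in replicate 1 and 11237 in replicate 2, and each member consisted of exactly 1 peak.

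For a view of the DNA in these regions, 25-bp sequences that the study lists as similar to its mutant p53 binding sequence were placed on them. The list gives hg19 positions and pairs them with genes, but it was available in shortened form, so the number of matches is not read as a rate. Of the listed sequences, 6 lay in replicate 1-alone regions and 0 in replicate 2-alone regions. They are shown 5′ to 3′ as listed, with an ETS core, where a script found GGAA or TTCC, in capitals.
NAA40, chr11:63706240-63706264, minus strand: gccccctcgcagggctgcgtctgta
ARL2, chr11:64781662-64781686, minus strand: gccccatggtccccggagccccctc
FRMD8 and SLC25A45, chr11:65153992-65154016, minus strand: gcccgcgcatgcccggacgccagcc
OVOL1 and SNX32, chr11:65585742-65585766, minus strand: cgccgctcccgccccggccttgccc
NSFL1C, chr20:1447521-1447545, plus strand: gccccgctgccgcgTTCCgcttgcc
MRPS6 and SLC5A3, chr21:35445927-35445951, plus strand: tgtccccgccgtcccgccccttcgc

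The core stood in 1 of these 6 sequences, at NSFL1C, which encodes a cofactor of the p97 ATPase. It stood in 64 of the 415 listed sequences (15.4%) and in 21 of the 106 that lay in shared regions (19.8%). The 6 sequences had 72% to 88% G and C. Of the 6, 4 lay on chromosome 11 between positions 63706240 and 65585766, paired in the list with NAA40, which encodes an N-terminal acetyltransferase of histones, ARL2, a small GTPase, FRMD8 and SLC25A45, and OVOL1, a zinc-finger transcription factor, and SNX32. The ERG regions around the sequences were 236 bp to 765 bp wide and lay 3.82 kb to 73.2 kb from the nearest shared region. The NSFL1C region, 236 bp wide, overlapped a peak of p53 replicate 1, and the other 5 overlapped no peak of the deposited p53 lists. Those lists are short, and the study took the sequences from gene loci that it lists as bound by mutant p53. The missing overlap therefore does not show that these loci lack p53. The sequences were also chosen for their likeness to a p53 sequence, so they describe these windows and not ERG binding in the members at large.

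Single-replicate regions were not spread evenly over the replicates. Replicate 1 supplied 73.6% of them (72.6% to 74.7%) and replicate 2 supplied 26.4%. As a share of each list, 34.6% of replicate 1 peaks (33.8% to 35.3%) and 15.8% of replicate 2 peaks (15.1% to 16.5%) were in that replicate alone. The longer list thus had the larger share of peaks without a partner. This follows from the list lengths, since the peaks with a partner were nearly equal in number, 9382 and 9463. When replicate 1 was limited to its widest 11237 peaks, the length of the list of replicate 2, the split was 2984 against 2896 regions, and replicate 1 supplied 50.8%. With lists of equal length, and with most shared regions holding 1 peak of each, an almost even split is set by construction.

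Most members were narrow. The median was 283 bp for replicate 1-alone regions (quartiles 244 bp and 348 bp, range 215 bp to 1162 bp) and 231 bp for replicate 2-alone regions (quartiles 204 bp and 280 bp, range 186 bp to 1053 bp). Shared regions, which join peaks of both lists, had a median of 438 bp (quartiles 344 bp and 575 bp). Peak by peak the order was the same, with medians of 283 bp for peaks in replicate 1 alone and 403 bp for its 9382 recurring peaks, and 231 bp for peaks in replicate 2 alone and 326 bp for its 9463 recurring peaks. Members covered 1.57 Mb in replicate 1 alone and 0.453 Mb in replicate 2 alone, against 4.57 Mb in shared regions.

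**Figure D1:**
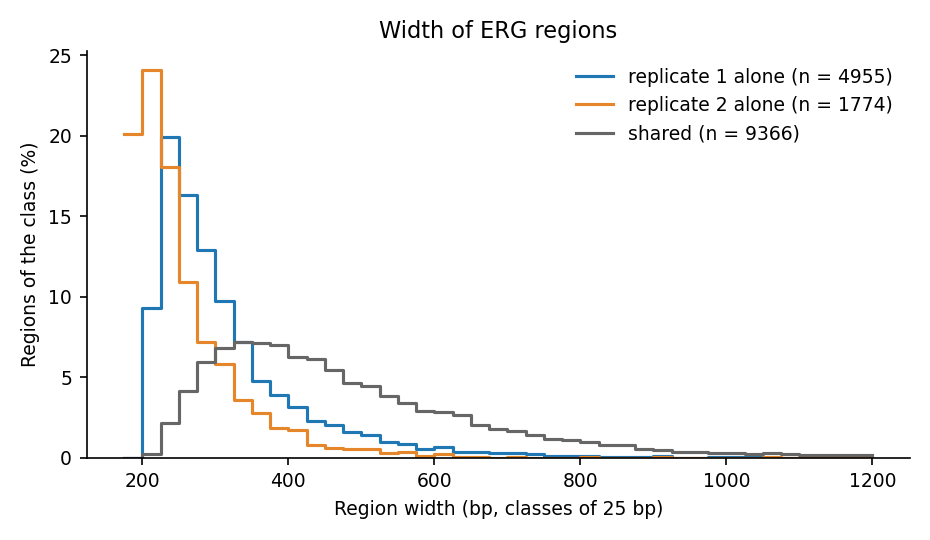
Width of ERG regions in bp (x axis, classes of 25 bp, shown up to 1200 bp) as percent of each class of regions (y axis) for replicate 1 alone, replicate 2 alone and shared regions. Both single-replicate curves peak at the narrow end of the axis, with medians of 283 bp and 231 bp, while the shared curve has a median of 438 bp.

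The narrow end of each list was rich in members. Within 10 bp of the smallest width in the list were 501 replicate 1-alone peaks (10.1%), against 2.26% of the replicate 1 peaks that recurred. In replicate 2 they were 289 peaks alone (16.3%), against 3.84% of those that recurred. Members were not confined to that end, since 1197 replicate 1-alone regions (24.2%) were wider than the median of their list, 351 bp, and 313 replicate 2-alone regions (17.6%) were wider than theirs, 306 bp. Among the widest 10% of each list, above 642 bp in replicate 1 and 563 bp in replicate 2, there were still 108 regions of replicate 1 alone and 12 of replicate 2 alone.

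The widest replicate 1-alone regions were chr1:27018698-27019859 and chr6:4775851-4777012, both 1162 bp. They were followed by chr2:10587988-10589066 (1079 bp), chr21:37507318-37508375 (1058 bp) and chr2:242254286-242255332 (1047 bp). These 5 lay 20.9 kb to 757 kb from the nearest shared region. In replicate 2 alone, the widest were chrY:135150-136202 (1053 bp), chrX:185719-186620 (902 bp), chr10:42529451-42530261 (811 bp), chr4:6223568-6224287 (720 bp) and chr15:76135465-76136129 (665 bp). The first 3 of these also met a p53 peak. Regions are given by hg19 position, since no annotation of that build was used.

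Few members had narrowly missed a partner. A replicate 2 peak lay within 100 bp of 14 replicate 1-alone regions (0.283%), within 500 bp of 155 (3.13%), within 1 kb of 272 (5.49%) and within 10 kb of 893 (18.0%). A replicate 1 peak lay within 100 bp of 14 replicate 2-alone regions (0.789%), within 500 bp of 108 (6.09%), within 1 kb of 164 (9.25%) and within 10 kb of 413 (23.3%). Most members of either replicate therefore had no peak of the other list within 10 kb. Of the near neighbours within 500 bp, 104 of 155 and 58 of 108 regions lay beside a peak of a shared region. There were 52 pairs of a replicate 1-alone and a replicate 2-alone region up to 500 bp apart, with a median gap of 212 bp.

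**Figure D2:**
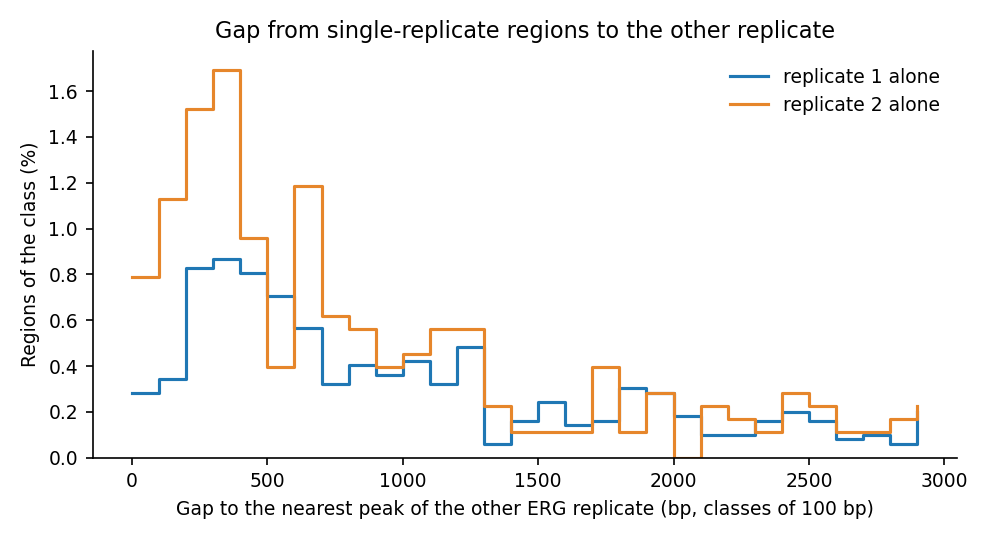
Gap in bp from single-replicate ERG regions to the nearest peak of the other ERG list (x axis, classes of 100 bp, shown up to 3 kb) as percent of all regions of the class (y axis). Both curves are highest at gaps below 500 bp, and 14 regions of each class have a gap of up to 100 bp.

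At the threshold of the rule, 1 bp of overlap decided the class. The members closest to a partner were chr17:78008868-78009749 (882 bp, replicate 1) and chr17:78009755-78010016 (262 bp, replicate 2), which were 5 bp apart, and chr4:76860971-76861312 (342 bp, replicate 1), with a gap of 6 bp. On the other side were shared regions at chr17:7738455-7739446, chr6:44224562-44225420 and chr22:41842650-41843417, whose peaks overlapped by 1 bp, 10 bp and 17 bp. Such cases were rare. Among the 9254 shared regions with 1 peak of each replicate the median overlap was 294 bp, and 5 overlapped by 50 bp or less.

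Single-replicate regions lay close to shared regions more often than an even placement would give. The nearest shared region was a median of 65.5 kb away for replicate 1 alone and 60.4 kb for replicate 2 alone, and for shared regions the next shared region was a median of 53.5 kb away. Within 10 kb lay 1035 members (15.4%, 14.5% to 16.3%), 756 of replicate 1 alone (15.3%) and 279 of replicate 2 alone (15.7%). The same held for 1548 shared regions with respect to another shared region (16.5%), and for 16.0% of all 16095 ERG regions. Even placement was computed from lengths, as the share of all positions between the outermost peaks of the chromosome, free of shared regions, at which a region of the same width would lie within the distance. It gave 6.54% within 10 kb, so that the observed share was 2.35 times as large. Sequence to which reads cannot be aligned was not known from the lists, and without stretches of over 3 Mb free of shared regions the value was 7.70%.

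The ratio fell with distance. Within 500 bp were 181 members (2.69%), against 0.355% for even placement, a ratio of 7.57, and within 1 kb 302 members (4.49%), against 0.705%, a ratio of 6.37. Within 100 kb the shares were 61.5% and 39.4%, a ratio of 1.56. The ratios were smaller with placement kept in the same 1 Mb window as the member. Placement then gave 0.551% within 500 bp, 1.09% within 1 kb, 9.97% within 10 kb and 55.1% within 100 kb, and the ratios were 4.89, 4.12, 1.54 and 1.12. Up to 100 bp there was no detectable difference, since 4 members lay so close (0.0594%, 0.0231% to 0.153%), against 0.0723% for placement in the chromosome and 0.112% in the window, and both placement values were inside the interval.

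**Figure D3:**
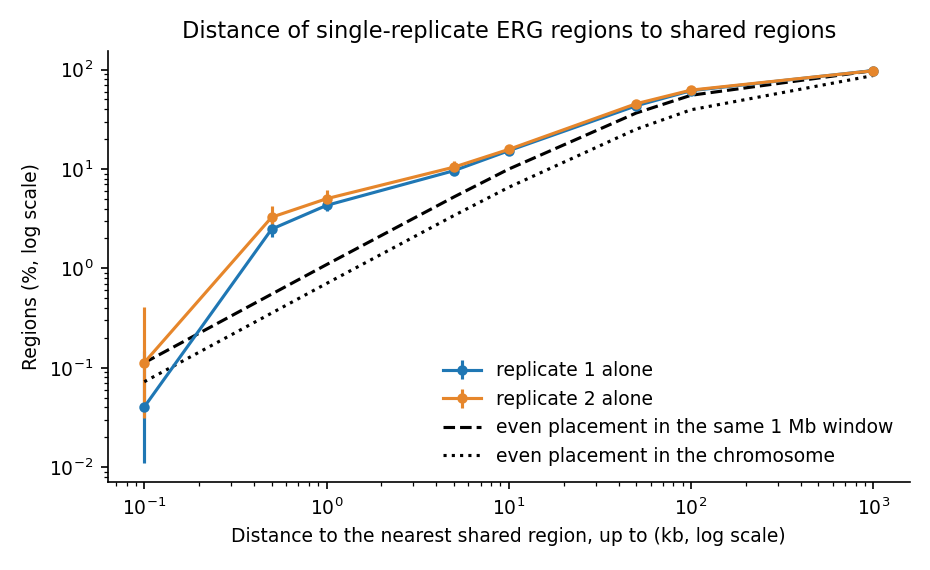
Percent of single-replicate ERG regions (y axis, log scale) with a shared region up to the distance on the x axis (kb, log scale), for replicate 1 alone and replicate 2 alone with 95% Wilson intervals, and for even placement of the members in the same 1 Mb window (dashed) or chromosome (dotted). The observed curves run well above both lines at 500 bp and 1 kb, with 2.69% and 4.49% of all members, and approach them towards 1000 kb.

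Members beside a shared region did not differ in width from the rest by more than a few bp. Within 1 kb of a shared region the median width was 284 bp in replicate 1 alone and 228 bp in replicate 2 alone, and beyond 100 kb it was 283 bp and 232 bp. The 305 shared regions with a member within 1 kb (3.26%) were 445 bp wide in the median, and the other shared regions 438 bp. Among those 305, 216 had a replicate 1-alone neighbour, 91 a replicate 2-alone neighbour and 2 had both.

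The order of members and shared regions along the chromosomes is given as a description, with no expected value beside it. By this order, 2131 members (31.7%) had a shared region as the next ERG region on both sides or at the chromosome end, and 544 (8.08%) stood in 77 runs of more than 5 members with no shared region between them. The longest run held 15 members, 10 of replicate 1 and 5 of replicate 2, at chr4:155471459-159593559. A run at chr2:92296134-95825246 held 12, of which 9 were of replicate 2, against 26.4% of replicate 2 among all members, and a run at chr6:4021408-10404915 held 12, of which 3 were of replicate 2. In the chromosome 2 run, the replicate 2 members that overlapped a p53 peak all lay between positions 92296134 and 92320513.

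The members farthest from a shared region were chr1:193028470-193028763 (4716 kb), chrX:139271789-139272048 (3692 kb) and chr11:51580451-51580978 (3449 kb) in replicate 1 alone. In replicate 2 alone they were chr4:134378864-134379137 (4645 kb), chr2:143315066-143315310 (4056 kb) and chr11:51591076-51591314 (3459 kb). The chromosome 11 regions of the 2 replicates were 10.1 kb apart.

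All 24 chromosomes had members of both replicates. The single-replicate share of ERG regions was highest on chromosome Y, with 29 of 42 regions (69.1%, 54.0% to 80.9%). It was followed by chromosome 14 (46.5%), X (46.4%), 18 (46.2%) and 10 (46.2%), whose intervals overlapped each other. The intervals of chromosomes 4, 6, 10, 14 and Y lay above the genome-wide 41.8%, and those of 12, 17, 19 and 21 below it. The share was lowest on chromosome 21, with 99 of 288 regions (34.4%, 29.1% to 40.0%), 12 (36.3%, 33.1% to 39.5%), 17 (36.4%, 33.3% to 39.6%) and 19 (36.5%, 33.3% to 39.9%), and these neighbours in the order did not differ beyond their intervals.

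**Figure D4:**
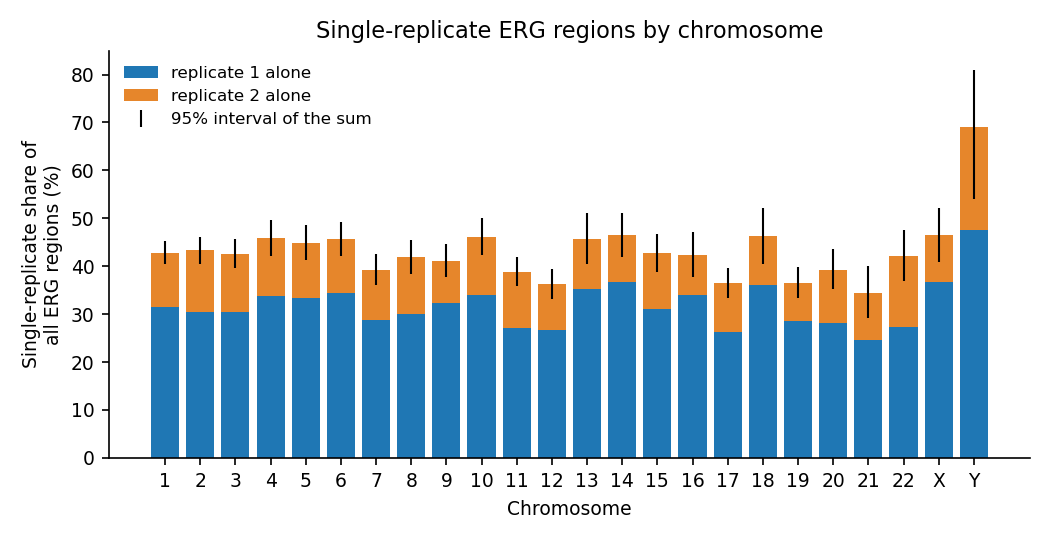
Single-replicate share of all ERG regions in percent (y axis) on each chromosome (x axis), stacked as replicate 1 alone (blue) and replicate 2 alone (orange), with the 95% Wilson interval of the sum. Chromosome Y stands at 69.1% with a wide interval, and the other chromosomes lie between 34.4% and 46.5%.

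Of the 4 chromosomes with the lowest share, 19 and 17 were rich in members per Mb between the outermost peaks. Chromosomes 21 and 12 were near the genome value of 2.24 members. In shared regions per Mb, all 4 lay above the genome value of 3.12. Shared regions are part of the share by which the 4 were picked, so this is a description only. Chromosome 19 had 5.17 members and 8.98 shared regions per Mb, chromosome 17 had 4.04 and 7.05, chromosome 21 had 2.61 and 4.98, and chromosome 12 had 2.35 and 4.13. Chromosome 22, with a share of 42.2%, had 4.15 members and 5.70 shared regions per Mb. Chromosome Y had 0.490 members per Mb, against 0.220 shared regions, and chromosome X had 0.884, against 1.02. The median distance of members to the nearest shared region was smallest on chromosome 19 (22.9 kb) and chromosome 21 (24.2 kb) and largest on X (150 kb) and Y (428 kb). It did not follow density throughout, since it was 36.4 kb on chromosome 17, where shared regions were denser than on chromosome 21. Replicate 2 supplied between 19.8% of the members on chromosome 16 (14.6% to 26.3%) and 35.0% on chromosome 22 (27.6% to 43.2%), and of the 24 intervals only these 2 excluded the genome-wide 26.4%.

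In 1 Mb windows the single-replicate share was lower where ERG regions were more numerous. Where a window held 1 or 2 ERG regions, 48.6% of them were single-replicate (45.4% to 51.8%), and the share was 48.3% at 3 to 5 regions, 43.7% at 6 to 10, 38.1% at 11 to 20 and 33.0% above 20 (30.8% to 35.4%). Windows that held members but no shared region numbered 285 of 2472 and contained 504 members (7.49%). The windows with the most members were dense ones by construction, since members are part of the count of ERG regions. The window of chromosome 19 that starts at 1000001 had 19 members, 17 of replicate 1 and 2 of replicate 2, beside 16 shared regions. Those of chromosome 11 starting at 65000001, chromosome 8 starting at 145000001 and chromosome 19 starting at 18000001 had 15, 13 and 13 members, beside 37, 12 and 16 shared regions. The next 4 windows had 12 members each.

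The last comparison asked how often members met p53. The deposited p53 lists are short, with 227 and 138 peaks. The published methods state a single p-value threshold for ChIP-seq peaks, while the study's reporting summary gives a stricter one for p53 than for ERG. The study describes p53 peak sets far longer than these lists. How the deposited p53 lists relate to those sets is not given in the sources used here, so all overlaps with p53 hold for these lists only. A p53 peak of either replicate overlapped 46 of the 6729 members (0.684%, 0.513% to 0.911%), against 132 of the 9366 shared regions (1.41%, 1.19% to 1.67%) and 1.11% of all ERG regions. In replicate 1 alone, 22 of 4955 regions overlapped p53 (0.444%, 0.293% to 0.671%), and in replicate 2 alone 24 of 1774 did (1.35%, 0.911% to 2.01%). The interval of replicate 1 alone lay below those of replicate 2 alone and of shared regions, and the last 2 overlapped. No test of these differences was made.

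The order of replicate 1 alone and replicate 2 alone was the same with each p53 list, but their intervals were apart only with p53 replicate 2. With p53 replicate 1, 12 regions of replicate 1 alone (0.242%, 0.139% to 0.423%) and 12 of replicate 2 alone (0.676%, 0.387% to 1.18%) overlapped, against 99 shared regions (1.06%) and 0.764% of all ERG regions. With p53 replicate 2 the numbers were 10 (0.202%, 0.110% to 0.371%) and 15 (0.846%, 0.513% to 1.39%), against 60 shared regions (0.641%, 0.498% to 0.824%) and 0.528% of all ERG regions. Wider regions have more room for an overlap. Per Mb covered, 14.0 regions of replicate 1 alone and 52.9 of replicate 2 alone overlapped a p53 peak, against 28.9 shared regions. This rate takes in the width of the ERG regions but not that of the p53 peaks, so it is not a full correction for width. It also includes overlaps at p53 regions that lie close together. Members that overlapped p53 had median widths of 356 bp in replicate 1 alone and 339 bp in replicate 2 alone, against 283 bp and 231 bp for those that did not.

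**Figure D5:**
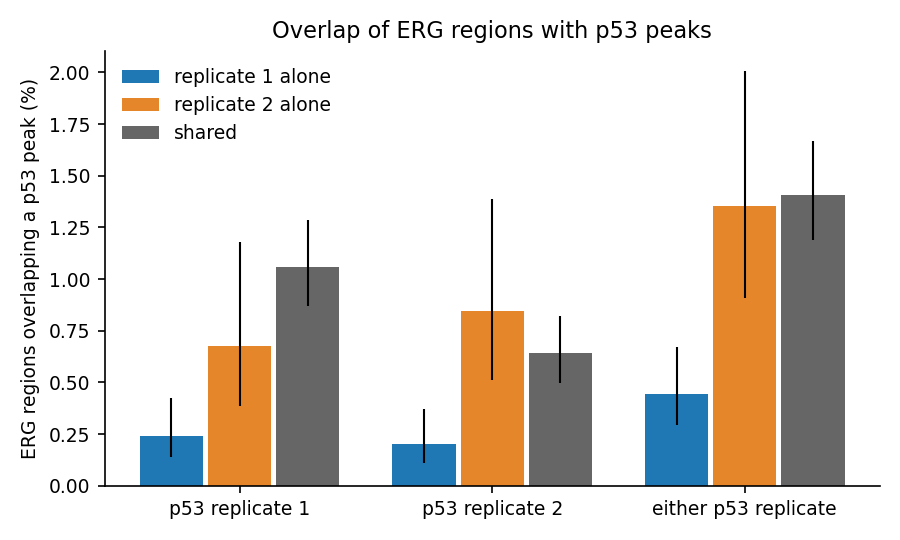
Percent of ERG regions (y axis) that overlap a peak of p53 replicate 1, p53 replicate 2 or either (x axis), for replicate 1 alone (blue), replicate 2 alone (orange) and shared regions (grey), with 95% Wilson intervals. With either p53 list the values are 0.444%, 1.35% and 1.41%.

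Counting neighbours within 100 kb once, the 24 p53 overlaps of replicate 2 alone lay in 18 places, the 22 of replicate 1 alone in 22 and the 132 of shared regions in 117. Of the 24 regions, 15 met a p53 region that had another p53 region within 100 kb, against 1 of the 22 of replicate 1 alone and 39 of the 132 shared regions. The chromosome 2 interval from 92296134 to 92320513 held 5 of them. With such grouped p53 regions left out, 21 regions of replicate 1 alone (0.424%, 0.277% to 0.647%) and 9 of replicate 2 alone (0.507%, 0.267% to 0.961%) overlapped p53, against 93 shared regions (0.993%, 0.811% to 1.22%). Without the grouped p53 regions the intervals of the 2 replicates overlapped.

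Some of the overlaps lay beside long empty stretches. The 4 lists together left 83 stretches of over 3 Mb without any peak between 2 peaks. Within 500 kb of the edge of such a stretch were 6 of the 22 p53-overlapping regions of replicate 1 alone and 12 of the 24 of replicate 2 alone, against 22 of the 132 shared ones (16.7%). Of all members, 3.42% lay so close to such an edge, against 2.49% of all shared regions. In some members the edges of the ERG and the p53 peak were nearly the same. Both edges agreed within 10 bp in 4 of the 22 and in 5 of the 24, against 12 of the 132 shared regions. An example is chr11:51580451-51580978, a replicate 1-alone region whose p53 replicate 2 peak ends 4 bp later. No annotation of centromeres or repeats was used, so whether the p53 overlaps of members lie in such sequence was not tested.

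A p53 region present in both p53 replicates was rarely met by a member. This was the case for 0.186% of all ERG regions, for 0 of the 4955 regions of replicate 1 alone, which allows a share of up to 0.0605% by 3 counts (Wilson upper limit 0.0775%), and for 3 of the 1774 of replicate 2 alone (0.169%), against 27 shared regions (0.288%). The 3 members were chrY:135150-136202 (1053 bp), chrX:185719-186620 (902 bp) and chr19:27738464-27738908 (445 bp). The first 2, which are also the widest of replicate 2 alone, lie near the short-arm ends of X and Y, in the pseudoautosomal region, where both chromosomes carry the same sequence. Each lay 1324 kb from the nearest shared region, and whether their reads come from separate places was not tested. They may therefore be the same place counted on both chromosomes, here and among the 18 places of p53 overlaps of replicate 2 alone. The region on chromosome 19 lay 0.799 kb from a shared region.

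From the side of p53, 46 of the 328 p53 regions (14.0%, 10.7% to 18.2%) met a single-replicate ERG region, against 133 (40.6%, 35.4% to 45.9%) that met a shared one. No p53 region met both kinds, and 149 (45.4%) met no ERG region. Within 1 kb of a p53 peak were 28 regions of replicate 1 alone (0.565%, 0.391% to 0.816%) and 28 of replicate 2 alone (1.58%, 1.09% to 2.27%), against 146 shared regions (1.56%, 1.33% to 1.83%) and 1.26% of all ERG regions.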

How the data were processed

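ChIP-seq peak lists of untreated VCaP cells were used, 2 for ERG and 2 for p53. Per the submitters' processing notes, CASAVA 1.4, Bowtie2 2.3.3.1 and MACS2 were used by the authors with hg19. A different Bowtie2 version, and hg38 beside GRCh37, stand in the published methods. Peaks of 15 of 24 chromosomes reach beyond the GRCh38 end, so positions were taken as hg19, counted from 1, and no GRCh38 gene or sequence was used. The deposited files hold 4 columns (chromosome, start, end, name), and no enrichment score or read depth was used.

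Peaks overlapping by at least 1 bp were merged. Distances run between edges. Even placement was counted from lengths, and nothing was drawn at random. Shares have 95% Wilson intervals, which cover counting error only, and regions are not replicates. A count of 0 allows up to 3 counts. Grouped p53 regions are those with a p53 neighbour up to 100 kb away. Long empty stretches and equal peak edges were examined after the data were seen. Regions named were the 5 widest and the 3 farthest from a shared region in each replicate, those closest to the rule's threshold, those at p53 regions of both replicates and the windows with most members. Others, such as the long runs and the places of grouped p53 overlaps, were chosen after their values were seen. The 25-bp sequences come from a supplementary list of the study. Members and lists were chosen with earlier results of these data known.

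The merging, distance and placement functions were tested on simulated data (50 sets each). Alternatives comprised the overlap rule, joining of near peaks, width filters, distance limits and single p53 lists. Python 3.11.15, numpy 2.4.6, scipy 1.17.1 and matplotlib 3.10.9 were used.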

Additional observations from a re-analysis of the deposited data

How the results depend on the processing

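The number of single-replicate ERG regions stayed within 1.5 times of 6729 under a reciprocal overlap of 50% (8664 peaks without a partner), joining of peaks up to 100 bp apart (6701) or 500 bp apart (6404) and a minimum width of 250 bp (6253). Of 28 alternatives, 15 left a value within its interval or 1.5 times, and 13 moved it. Replicate 1 supplied 84.2% of the members at a minimum width of 250 bp. It supplied 50.8% when limited to its widest peaks, a split set by construction through the equal list lengths. The share within 10 kb of a shared region was 13.1% when peaks up to 500 bp apart were joined. By construction it was 4.49% at 1 kb and 43.8% at 50 kb, and the number of members near a peak of the other list was 28 at 100 bp and 1306 at 10 kb, beside 436 at 1 kb. Chromosome Y kept the highest single-replicate share in each alternative that was ranked by chromosome. The lowest was chromosome 21 when peaks up to 500 bp apart were joined or at a minimum width of 250 bp. With replicate 1 limited to its widest peaks, the lowest was chromosome 19 (35.05%).

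The share overlapping p53, 0.684%, was 0.357% to 0.372% with either p53 replicate left out, 0.0446% for p53 regions of both replicates and 0.446% without grouped p53 regions. It was 0.444% for replicate 1 alone and 1.35% for replicate 2 alone. The last 3 settings were chosen after seeing the data, as was the split by replicate at 10 kb. By construction, settings with fewer p53 peaks (a single list, both replicates or no grouped regions) could only leave the share unchanged or lower. For the size of these falls, and for the other moves not set by construction, the cause was not tested.

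No paired analysis was possible because no test between groups was made, and leaving out an ERG replicate leaves no class to compare. The planned stricter peak threshold was not run, since it needs a column of enrichment values. Read depth behind the peaks was not used, so whether a missing peak reflects depth was not tested.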
